A study of Mus musculus with 8 samples.

Results

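The 7 genes described here form the core of the renin-angiotensin system: the renin genes Ren1 and Ren2, angiotensinogen (Agt), the angiotensin-converting enzyme (Ace), the type 1 angiotensin receptors Agtr1a and Agtr1b, and the prorenin receptor Atp6ap2. They were taken as all probes that carry one of these gene names, which gave 11 of the 41174 probes on a mouse expression array. The set was chosen by the response of renin to N-ethyl-N-nitrosourea (ENU), which was the largest decrease in Dicer1-deleted liver, so the ENU difference in that genotype is given as a description without a test. Of the 11 probes, 8 were well above background on both arrays of at least 1 group, and they measured 6 of the 7 genes among 18153 measured in all.

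Liver RNA of C57BL/6 mice was hybridised to 8 one-colour Agilent arrays, 2 for each of 4 groups. The KO groups were Albumin-Cre;Dicer1loxP/loxP mice, whose Cre recombinase is driven by the albumin promoter and deletes Dicer1 in hepatocytes. Which other liver cells keep the gene was not measured. The WT groups were Dicer1loxP/loxP littermates without Cre, and all 4 groups therefore carry the floxed allele. Mice of each genotype were injected intraperitoneally at 6 months of age with 120 mg/kg of the alkylating mutagen ENU, or with the vehicle dimethylsulfoxide, in 2 ml/kg. The ENU groups (KO ENU and WT ENU) were measured at day 15, while the day is not given for KO vehicle and WT vehicle. The labels call the mice female, but 4 of 4 Y-linked genes checked gave a signal well above background in every group. How many mice each RNA stands for is not stated.

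Arrays a and b of a group differed by no more than the noise between spots of 1 array: the median standardised difference was 0.537 to 0.583 within groups and 11.4 to 27.4 between groups. They were therefore counted as 1 RNA sample, which leaves 1 RNA sample per group, so a difference between groups has no replicate check. All ENU arrays shared a slide and scan and all vehicle arrays another, so ENU and slide cannot be told apart. KO arrays lay at positions 1 and 2 and WT arrays at positions 3 and 4 of each slide, so genotype and position cannot be told apart either. A level is log2 of a probe's signal divided by the 75th percentile of its array (437 to 681 signal units). Levels of different probes are not compared, except in sums of marker genes and the shares within them. Those sums and shares depend on how brightly each probe hybridises. Per array, 54.6% to 69.4% of spots passed the scanner program's background test and 0 were saturated. The number of RNA samples, 1 per group, limits the precision. The targeted gene Dicer1 was lower in KO by its probe A_51_P333060, at -4.02 in KO ENU against -2.51 in WT ENU and -4.32 in KO vehicle against -1.86 in WT vehicle. The second Dicer1 probe, A_51_P483059, was lower by 0.25 after ENU and by 0.50 on vehicle. Which exons were deleted is not stated, so neither probe can be placed against them.

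Renin is an aspartyl protease that cleaves angiotensinogen to angiotensin I, and this step sets the pace of the cascade. The converting enzyme Ace then forms angiotensin II, which raises blood pressure and aldosterone secretion through type 1 receptors. Hepatocytes are the main source of circulating angiotensinogen, whereas circulating renin is released by the juxtaglomerular cells of the kidney. C57BL/6 mice carry only the Ren1 gene, and Ren2 is a nearby duplicate found in some other strains.

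The sequence before the Ren1 start is shown because it holds well studied control elements of the gene and the renin probes had the widest differences of the set. RefSeq annotation (GRCm38.p6) had a promoter window for 5 of the 7 genes: Ren1, Agt, Ace, Agtr1b and Atp6ap2. The 250 bases upstream of Ren1, at chr1:133350424-133350673 on the + strand, are printed 5′ to 3′ with 2 motifs in capitals. These are TATAAA, the TATA box core, and ATAAATCA, which is TGATTNAT read on the opposite strand, a homeodomain protein motif.

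Ren1: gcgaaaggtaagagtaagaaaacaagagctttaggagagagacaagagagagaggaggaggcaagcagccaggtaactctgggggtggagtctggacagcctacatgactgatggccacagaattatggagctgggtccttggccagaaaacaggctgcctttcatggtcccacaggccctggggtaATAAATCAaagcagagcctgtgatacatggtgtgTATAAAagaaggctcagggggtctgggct

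TATAAA began at position -29 from the annotated start and ATAAATCA at position -63. Searched on both strands, TATAAA occurred in 12.4% of 32851 promoter windows of this length and TGATTNAT in 2.82%. TATAAA on either strand also lay in the windows of Agt, Agtr1b and 1 of the windows of Ace, while TGATTNAT was found in the Ren1 window alone among those of the members. TGACGTCA, the palindromic cyclic AMP response element, occurred in 1.55% of windows and in none of the members'. These matches describe letters only.

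Renin RNA was high in vehicle-treated KO liver, intermediate in vehicle-treated WT liver and low in both ENU livers. The brighter Ren1 probe, A_51_P316661, lies at chr1:133261002-133261061 of mm7, the build of the file headers, whose exons and UTRs were not annotated here. It read -0.11 and -0.26 in KO ENU, -0.32 and -0.31 in WT ENU, 5.79 and 5.80 in KO vehicle, and 2.98 and 3.005 in WT vehicle. The 2 vehicle groups stood apart from each other and from both ENU groups, while the ENU groups' means differed by less than the KO ENU arrays did from each other. On vehicle, Ren1 was therefore 6.98-fold higher in KO than in WT, and after ENU it was 1.09-fold higher, a difference whose sign changed with median centring (-0.057 log2). ENU liver had 63.2-fold less Ren1 signal than vehicle liver in KO, the difference by which the set was chosen, and 9.89-fold less in WT.

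The other Ren1 probe, A_52_P544060, lies 5832 bases away at chr1:133255110-133255169 and gave the same order of groups. Its levels were -4.09 and -4.06 in KO ENU, -4.32 and -4.12 in WT ENU, 1.32 and 1.30 in KO vehicle, and -1.38 and -1.23 in WT vehicle. It was well above background on 7 of 8 arrays, the exception being WT ENU a. On vehicle it was 6.14-fold higher in KO than in WT, and after ENU 1.101-fold higher. ENU against vehicle gave 42.0-fold less signal in KO and 7.53-fold less in WT. With normexp background correction these ENU differences were smaller, at -4.01 log2 in KO and -1.55 log2 in WT, and the difference after ENU changed sign, to -0.19 log2.

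The Ren2 probe, A_52_P192265, followed Ren1 closely. The files place it at chr1:133261087-133261148, which is 25 bases from the end of the brighter Ren1 probe, so on this assembly it lies at the same locus and may read the same RNA. It read -0.79 and -0.78 in KO ENU, -1.25 and -1.34 in WT ENU, 5.09 and 5.06 in KO vehicle, and 2.21 and 2.19 in WT vehicle. On vehicle it was 7.32-fold higher in KO than in WT, after ENU 1.42-fold higher, and the ENU differences were 58.1-fold less in KO and 11.2-fold less in WT. Because Ren1 and Ren2 can cross-hybridise, they are not 2 independent measurements.

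**Figure D1:**
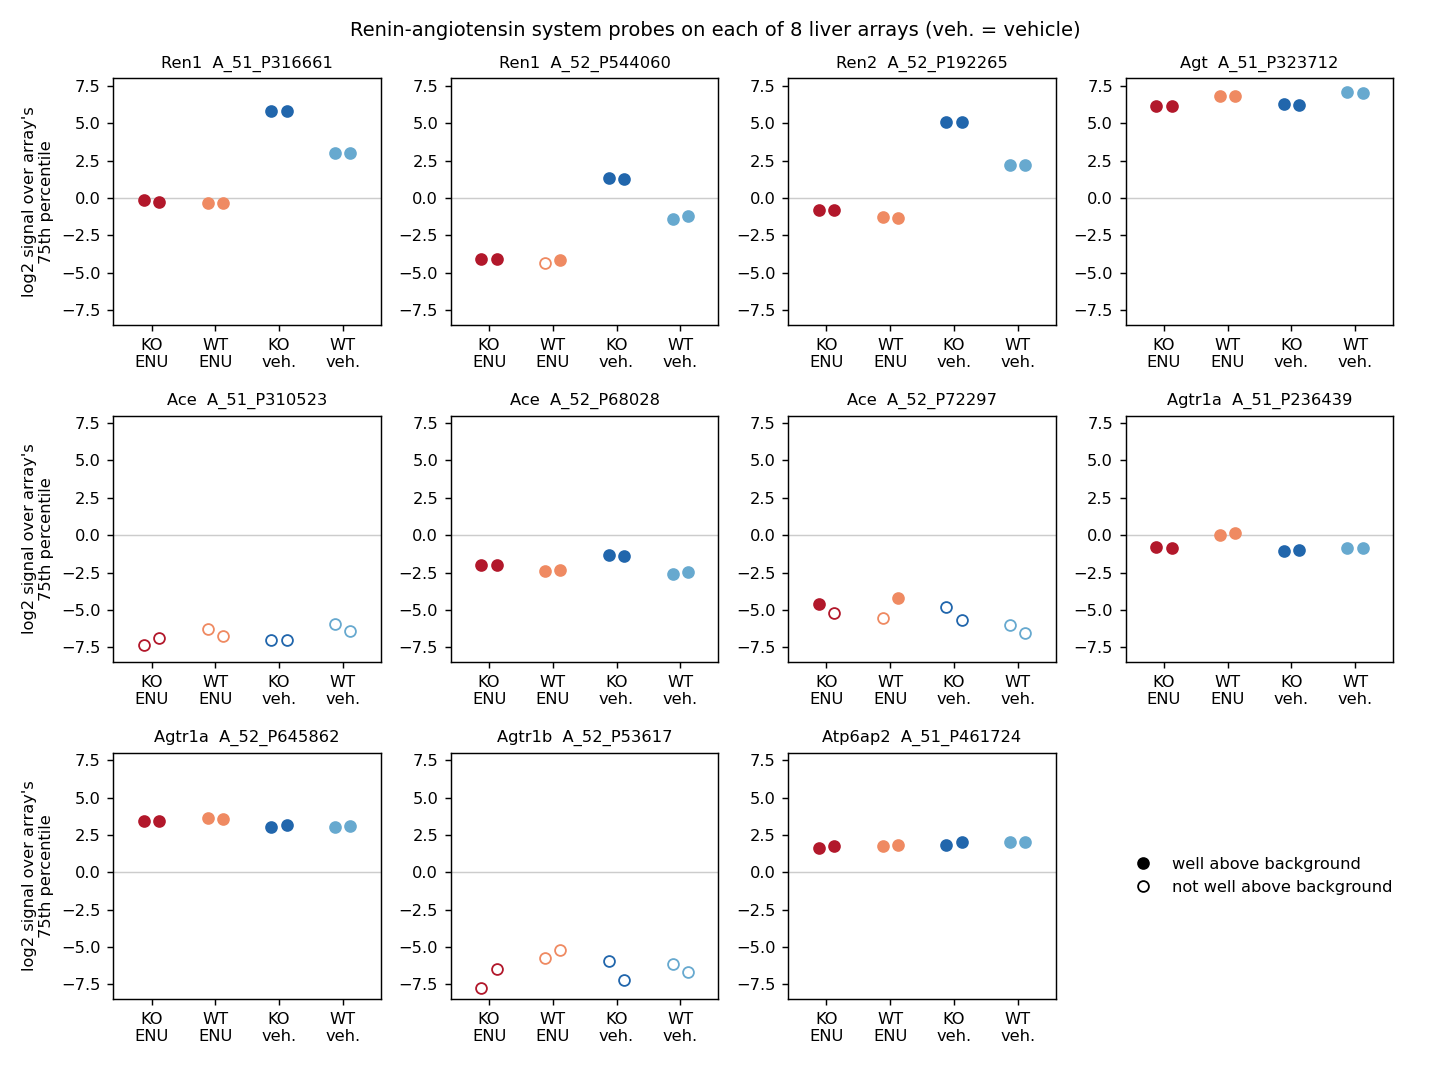
Level of each of the 11 probes (vertical axis, log2 relative to the 75th percentile) on each of 8 arrays, with 1 point per array in the groups KO ENU, WT ENU, KO vehicle and WT vehicle. Open points were not well above background. The 3 renin probes are highest in KO vehicle, Agt is lower in both KO groups, and the Agtr1b probe has open points only.

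Among the 18153 genes, the ENU difference in KO was lowest for Ren1, at -5.98 log2, and next for Ren2, at -5.86. The genes just outside the pair by which the set was chosen were Saa1 at -5.44, Saa2 at -5.43 and Saa3 at -5.05, which encode acute phase serum amyloid A proteins, and Fgf21, a hepatic hormone of fasting, at -4.75. In WT, which the choice did not use, Ren2 ranked 34 and Ren1 ranked 41 from the lowest. On vehicle, Ren2 ranked 512 and Ren1 ranked 554 from the highest in KO against WT. The KO against WT differences of renin, on vehicle and after ENU, each share a KO group with the difference used for the choice. The ENU difference of Ren1 was 2.68 log2 units more negative in KO than in WT, and with 1 RNA sample per group this was not tested.

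**Figure D2:**
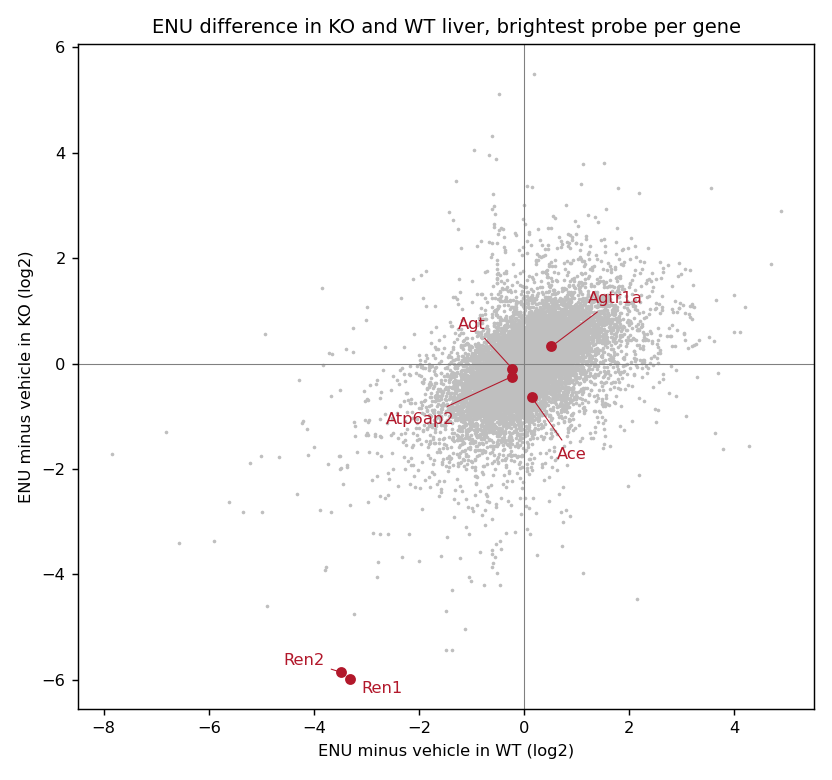
ENU minus vehicle in KO (vertical axis, log2) against ENU minus vehicle in WT (horizontal axis, log2) for the brightest probe of each of 18153 genes, with the 6 measured genes of the set in red. Ren1 and Ren2 lie at the bottom, at -5.98 and -5.86 in KO, while the other 4 lie near the centre.

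In bulk liver RNA, fewer cells of a type and less RNA per cell cannot be told apart. Of 10 kidney markers, 6 were well above background on no array, among them the podocyte gene Nphs1, the tubule transporters Slc12a1, Slc12a3 and Slc34a1, and Umod. The summed level of the kidney markers, relative to the 75th percentile, was 0.443 in KO ENU against 0.581 in WT ENU, and 0.686 in KO vehicle against 0.814 in WT vehicle. The water channel gene Aqp2 made up 42.1% to 72.1% of this sum. In the limma fit of genotype described below, Aqp2 fell by 0.89 log2 in KO over both treatments (limma adjusted p = 0.0380), whereas the endocytic receptor gene Lrp2 rose by 1.35 log2 (adjusted p = 0.0161). Lrp2 was 1.97-fold lower after ENU than on vehicle in KO and 1.86-fold lower in WT. The third kidney marker that was measured, Cdh16, was above background on 3 of 8 arrays and differed by 0.95 log2 in KO against WT on vehicle and by -1.40 log2 with ENU in KO. The adrenal marker Cyp11a1, the first enzyme of steroid synthesis, was also above background on no array. The 6 adrenal markers on the array summed to between 0.602 in WT vehicle and 1.09 in KO ENU. Hsd3b1 made up 70.8% of the sum in KO ENU and 52.9% in KO vehicle. Of the 5 measured adrenal markers, 2 rose and 2 fell in KO in the same fit. Markers of renin cells and vascular mural cells were above background on all arrays for 10 of 10 genes. Their sum was 49.6 in KO ENU against 18.1 in WT ENU, and 21.5 in KO vehicle against 9.64 in WT vehicle; it rested on a few bright probes, Akr1b7, Tagln and Acta2. In the same fit, 5 of the 10 rose in KO and 1 fell. The one that fell was Gja5, a connexin of renin cells and arterial endothelium, by 0.99 log2 (limma adjusted p = 0.0309). With ENU against vehicle, Gja5 differed by -0.05 log2 in KO and -0.34 log2 in WT. The contractile gene Acta2 differed by 1.45 log2 in KO and 1.70 log2 in WT, and Tagln by 0.70 log2 in KO and 0.75 log2 in WT. Other contractile genes differed less or in the other direction, Myh11 by 0.17 log2 in KO and 0.32 log2 in WT. Cnn1 differed by -0.86 log2 in KO and 0.79 log2 in WT. Over the 10 markers the median was 0.37 log2 in KO and 0.73 log2 in WT. Akr1b7, an aldo-keto reductase also made by renin cells and named after its values were seen, had levels of 4.44 in KO ENU against -2.997 in WT ENU, and 2.29 in KO vehicle against -2.89 in WT vehicle.

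Markers of other cell types also differed between the groups. The 9 hepatocyte markers on the array, above background on all arrays, summed to 1653 in KO ENU against 2566 in WT ENU, and 1700 in KO vehicle against 2801 in WT vehicle. The 10 macrophage markers summed to 344 in KO ENU against 133 in WT ENU, and 186 in KO vehicle against 80.3 in WT vehicle, and were likewise above background on all arrays. The 10 stellate cell markers summed to 98.4 in KO ENU against 85.1 in WT ENU, and 65.1 in KO vehicle against 99.7 in WT vehicle, with 8 above background on all arrays. Ecm1 alone made up 41.5% to 73.7% of that sum, and without it the sum was 49.3 in KO ENU against 27.9 in WT ENU, and 38.0 in KO vehicle against 26.2 in WT vehicle. Of the 9 measured stellate markers, 3 rose in KO and 0 fell, with a median of 0.60 log2 on vehicle, where the collagen gene Col1a1 was 13.0-fold and Pdgfrb 3.79-fold higher in KO. Of the macrophage markers 6 rose and 0 fell. The 12 endothelial markers summed to between 50.4 and 72.2, and 0 rose and 1 fell. The part of these cell types in the renin differences was not tested.

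The 5 genes whose pattern over the 4 groups was most like that of the brighter Ren1 probe were taken by the root mean square distance of their centred log2 levels. Ren2 was nearest at 0.14 log2 units, followed by Cidec, a lipid droplet protein, at 0.76. Cidec was measured on all 8 arrays, at a group mean of 0.79 in KO ENU against -1.098 in WT ENU, and 5.40 in KO vehicle against 3.80 in WT vehicle. After ENU, Cidec was higher in KO than in WT by 1.89 log2, against 0.13 log2 for Ren1. Next came Acot5, a peroxisomal acyl-CoA thioesterase, at 1.02, the adrenergic receptor gene Adra2a at 1.02 and the plakophilin gene Pkp1 at 1.11. These 3 were well above background on 4, 3 and 2 of the 8 arrays, so part of their pattern is a background level.

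**Figure D3:**
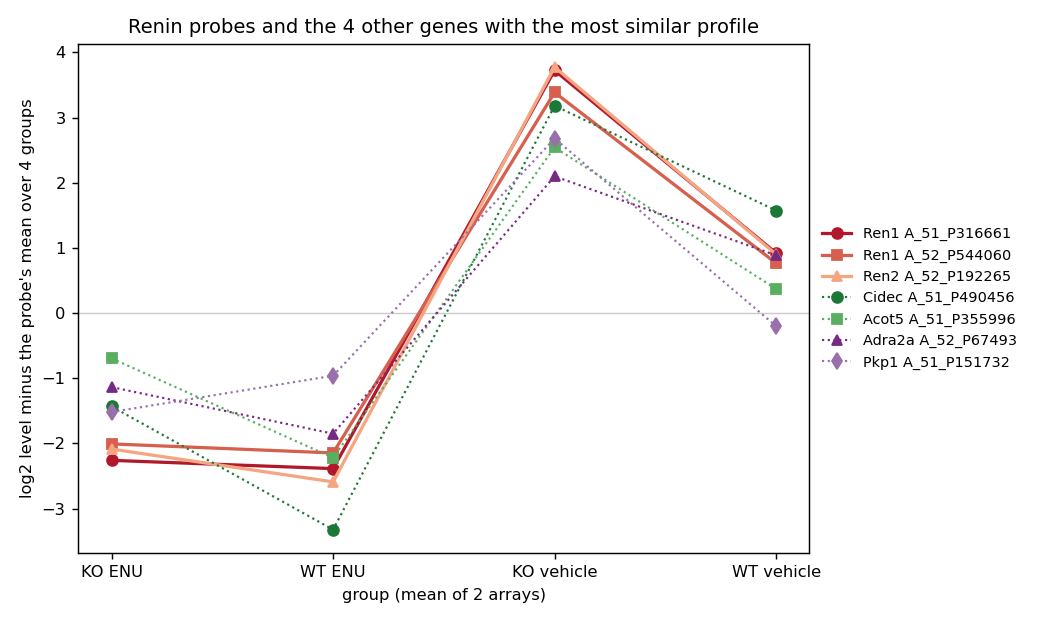
Centred log2 level (vertical axis, the group's mean of 2 arrays minus the probe's mean over the 4 groups) of the 3 renin probes (solid lines) and of Cidec, Acot5, Adra2a and Pkp1 (dotted lines) in KO ENU, WT ENU, KO vehicle and WT vehicle. The renin probes nearly coincide, and all 7 peak in KO vehicle.

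To compare genotypes across samples, limma was fitted with genotype and treatment as terms over the 4 RNA samples. Its 1 residual degree of freedom is the departure of the ENU difference in KO from that in WT. For renin that departure contains the very difference by which it was chosen, so its p-values are not independent of the choice. Adjusted p-values (Benjamini-Hochberg over 27231 probes) below 0.05 were called, and "rose" and "fell" are used of such calls alone. KO liver exceeded WT liver by 1.46 ± 0.68 log2 (SE) for the brighter Ren1 probe (limma adjusted p = 0.168), by 1.38 for the other (adjusted p = 0.165) and by 1.69 ± 0.61 for Ren2 (adjusted p = 0.103). None of these passed, although KO was higher in both pairs. Of the 6 measured genes, 0 were called higher and 1 lower in KO, whereas of all 18153 genes 17.1% were called higher and 15.4% lower. Ren2 and Ace had unadjusted limma p-values of 0.0469 and 0.0413 and were not called after adjustment. The share of all genes at such unadjusted values is not given, so nothing is read from them.

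Agt, the substrate of renin and a major secretory product of hepatocytes, was lower in KO liver and differed little with ENU. Its probe A_51_P323712, at chr8:123143932-123143991 (mm7), read 6.14 and 6.14 in KO ENU, 6.83 and 6.84 in WT ENU, 6.26 and 6.22 in KO vehicle, and 7.08 and 7.04 in WT vehicle. Both KO groups lay below both WT groups. Before the division, the signal on vehicle was 48251 and 50000 in KO against 59658 and 57248 in WT. The 75th percentiles were 629 and 674 in KO vehicle against 443 and 437 in WT vehicle. Most of the difference in level on vehicle therefore comes from the divisor. Agt was 1.61-fold lower in KO than in WT after ENU and 1.76-fold lower on vehicle, against medians over all genes of -0.10 and -0.14 log2. With ENU against vehicle it differed by -0.10 log2 in KO, a value that was 0.015 with quantile normalization, and by -0.22 log2 in WT.

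Over both treatments Agt fell by 0.75 ± 0.19 log2 (SE) in KO, with a limma adjusted p of 0.0494, the only gene of the set to pass. The call lay at the edge of the threshold. It passed in 6 of 15 alternative settings, with adjusted p between 0.0142 and 0.814, and without 1 array it was lost for 7 of the 8 arrays, KO vehicle a being the exception, with differences of -0.77 to -0.74 log2. With quantile normalization the difference shrank to -0.062 log2 (limma adjusted p = 0.814), with -0.034 log2 after ENU and -0.091 log2 on vehicle. The summed hepatocyte markers were lower in KO as well, as given above, and 6 of the 9 fell in the same fit, with a median of -0.87 log2. Their part in the lower Agt was not tested.

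Ace was well above background on all arrays by 1 of its 3 probes. A_52_P68028, at chr11:106098125-106098184 (mm7), read -2.01 and -1.97 in KO ENU, -2.40 and -2.34 in WT ENU, -1.32 and -1.37 in KO vehicle, and -2.58 and -2.45 in WT vehicle. KO vehicle stood highest. Ace was 1.31-fold higher in KO than in WT after ENU and 2.25-fold higher on vehicle. With ENU against vehicle it was 1.56-fold lower in KO and 1.104-fold higher in WT, where normexp gave -0.13 log2 and so the opposite sign. Over both treatments the KO minus WT difference was 0.78 ± 0.27 log2 (SE), with a limma adjusted p of 0.0942. The other probes do not bear on these values: A_51_P310523, at chr11:106099205-106099264, was well above background on 0 arrays, and A_52_P72297, whose placement spans 1987 bases at chr11:106095098-106097084, on 2 arrays.

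Agtr1a, the principal type 1 receptor of mouse tissues, was measured by both of its probes, which differed in detail. The brighter probe A_52_P645862, at chr13:29748316-29748375 (mm7), read 3.41 and 3.43 in KO ENU, 3.62 and 3.57 in WT ENU, 3.06 and 3.14 in KO vehicle, and 3.05 and 3.10 in WT vehicle. The vehicle groups overlapped and both ENU groups lay above them, by 0.32 log2 in KO and by 0.52 log2 in WT. KO minus WT over both treatments was -0.08 ± 0.19 log2 (SE; limma adjusted p = 0.782), and this small difference changed sign with normexp, to 0.020, and with quantile normalization, to 0.30.

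The other Agtr1a probe, A_51_P236439 at chr13:29747426-29747485, read -0.76 and -0.85 in KO ENU, 0.00 and 0.13 in WT ENU, -1.05 and -0.96 in KO vehicle, and -0.84 and -0.83 in WT vehicle. WT ENU alone stood out, 1.83-fold above KO ENU and 1.86-fold above WT vehicle. Its KO minus WT difference over both treatments was -0.52 ± 0.25 log2 (SE; limma adjusted p = 0.181). Agtr1b, the second type 1 receptor gene of rodents, was represented by A_52_P53617 at chr3:20046783-20046842. It was not well above background on any array, with levels between -7.72 and -5.17, and no difference is given.

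Atp6ap2 binds renin and prorenin and is an accessory protein of the vacuolar proton pump (V-ATPase). Its probe A_51_P461724, at chrX:11049648-11049707 (mm7), read 1.66 and 1.74 in KO ENU, 1.79 and 1.82 in WT ENU, 1.84 and 2.06 in KO vehicle, and 2.04 and 2.05 in WT vehicle. KO vehicle and WT vehicle overlapped, and each ENU group lay below its vehicle group, by 0.25 log2 in KO and by 0.24 log2 in WT. The KO minus WT difference was -0.10 ± 0.19 log2 (SE; limma adjusted p = 0.699), and it was 0.081 with quantile normalization.

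Counted by a 2-fold difference, which is a description with 1 RNA sample per group, 3 of the 6 measured genes were past it in KO against WT on vehicle, namely Ren1, Ren2 and Ace, where 28.4% of all genes were. For Ren1 and Ren2 the difference on vehicle shares the KO vehicle value with the choice of the set. Their probes may read the same RNA, so the 6 genes may hold 1 RNA under 2 names. After ENU, 0 of 6 were past a 2-fold difference, where 30.5% of all genes were. With ENU against vehicle, Ren1 and Ren2 were the only 2 past it in KO, where 9.79% of all genes were and from which nothing is read, and the same 2 in WT, where 12.7% were.

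A wider list of 98 genes of the pathway held 87 that were measured. Of these, 9 rose and 14 fell in KO over both treatments, or 10.3% and 16.1%, beside the 17.1% and 15.4% of all genes. The split depended on the scaling, with 10 higher and 22 lower by normexp, 9 and 5 by quantile normalization, and 6 and 23 with median centring. Of the 23 calls, 10 passed under every alternative in which the gene was measured, and 6 were lost when 1 array was left out: Anpep, Atp6v1h, Cpn1, Gnas, Mas1 and Rbpj.

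Of the 16 measured peptidases that make or degrade angiotensins, 1 rose and 3 fell, with a median of -0.18 log2 against -0.12 for all genes. Neprilysin (Mme), which forms angiotensin 1-7, fell by 2.03 ± 0.25 log2 (SE; limma adjusted p = 0.0131). Aminopeptidase A (Enpep), which converts angiotensin II to angiotensin III, fell by 1.14 log2 (adjusted p = 0.0220), and aminopeptidase N (Anpep) fell by 0.94 log2 (adjusted p = 0.0444), a call lost with quantile normalization. Cathepsin G (Ctsg), a neutrophil protease that can form angiotensin II, rose by 2.47 ± 0.50 log2 (SE; adjusted p = 0.0321) and was 10.8-fold higher in KO after ENU. The kallikrein Klk1 did not pass and was 2.92-fold lower in KO after ENU.

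Among 12 measured receptors and signalling genes, 3 rose and 2 fell, with a median of -0.08 log2. Rgs2, which shortens signalling from Gq-coupled receptors such as the type 1 receptors, rose by 3.03 ± 0.31 log2 (SE; limma adjusted p = 0.0105). It read 3.25 in KO ENU against 0.72 in WT ENU, and 3.05 in KO vehicle against -0.48 in WT vehicle, so that both KO groups lay above both WT groups. Arrb1, an arrestin that desensitises receptors, rose by 1.005 log2 (adjusted p = 0.0268), whereas Arrb2 did not pass and was 2.01-fold higher in KO on vehicle. Mas1, the receptor of angiotensin 1-7, rose by 1.08 log2 from a dim probe above background on 7 arrays, and that call was lost with normexp. The G protein gene Gna12 fell by 0.89 log2 and the phospholipase gene Plcb1 by 0.90 log2 (adjusted p = 0.0371 and 0.0334), the first of which was not called with quantile normalization.

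Of the 8 genes of aldosterone synthesis and response, 3 were measured, of which 1 rose and 1 fell. The epithelial sodium channel subunit Scnn1a fell by 2.89 ± 0.51 log2 (SE; limma adjusted p = 0.0238) and was 14.4-fold lower in KO after ENU. The kinase Sgk1, which raises sodium channel activity, rose by 0.98 log2 (adjusted p = 0.0337). All 9 genes of the kallikrein-kinin system were measured, of which 0 rose and 4 fell, with a median of -0.64 log2. These were plasma prekallikrein (Klkb1) by 1.52 ± 0.19 log2 (SE; adjusted p = 0.0135), the C1 inhibitor gene Serping1 by 1.27 log2, and the carboxypeptidase N subunits Cpn2 by 1.21 log2 and Cpn1 by 0.96 log2. With quantile normalization Klkb1 alone passed, and 7 of the 9 estimates, against 9 here, were below 0.

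Of 11 measured transcription factors that act on Agt, 0 rose and 1 fell, with a median of -0.52 log2. The number that fell was 4 with normexp, 4 with median centring and 0 with quantile normalization. Cebpa, a hepatocyte factor, fell by 0.90 log2 (limma adjusted p = 0.0339), a call that was lost with quantile normalization. Cebpd was 3.91-fold and Cebpb 3.43-fold lower in WT ENU than in WT vehicle, Esr1 was 2.24-fold lower in the same comparison, and Hnf4a was 2.27-fold lower in KO than in WT on vehicle. Those 4 did not pass the genotype fit.

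Of 21 measured regulators of renin transcription, 3 rose and 1 fell, with a median of 0.04 log2. The split was 2 higher and 5 lower with normexp, 1 and 6 with median centring, and 1 and 0 with quantile normalization. Nfya, a CCAAT-box factor, rose by 0.85 log2 and the Notch pathway factor Rbpj by 0.76 log2, while Gnas, the stimulatory G protein of the cyclic AMP pathway, fell by 0.78 log2 (limma adjusted p = 0.0377, 0.0477 and 0.0482). These 3 calls were lost with quantile normalization, among other settings. The retinoic acid receptor gene Rarb was 2.89-fold higher in WT ENU than in WT vehicle and did not pass. Vdr and Adcy5 were too close to background for a fold to be given.

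Of 16 measured V-ATPase subunits, the partners of Atp6ap2 in the proton pump, 1 rose and 2 fell, with a median of -0.31 log2. Atp6v0d1 fell by 1.08 log2 (limma adjusted p = 0.0235) and Atp6v1h by 0.80 log2 (adjusted p = 0.0432), while Atp6v1b2 rose by 1.05 log2 (adjusted p = 0.0394). With quantile normalization none of these 3 passed, although another subunit did. Atp6v0a2 was 2.08-fold lower in WT ENU than in WT vehicle and did not pass.

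**Figure D4:**
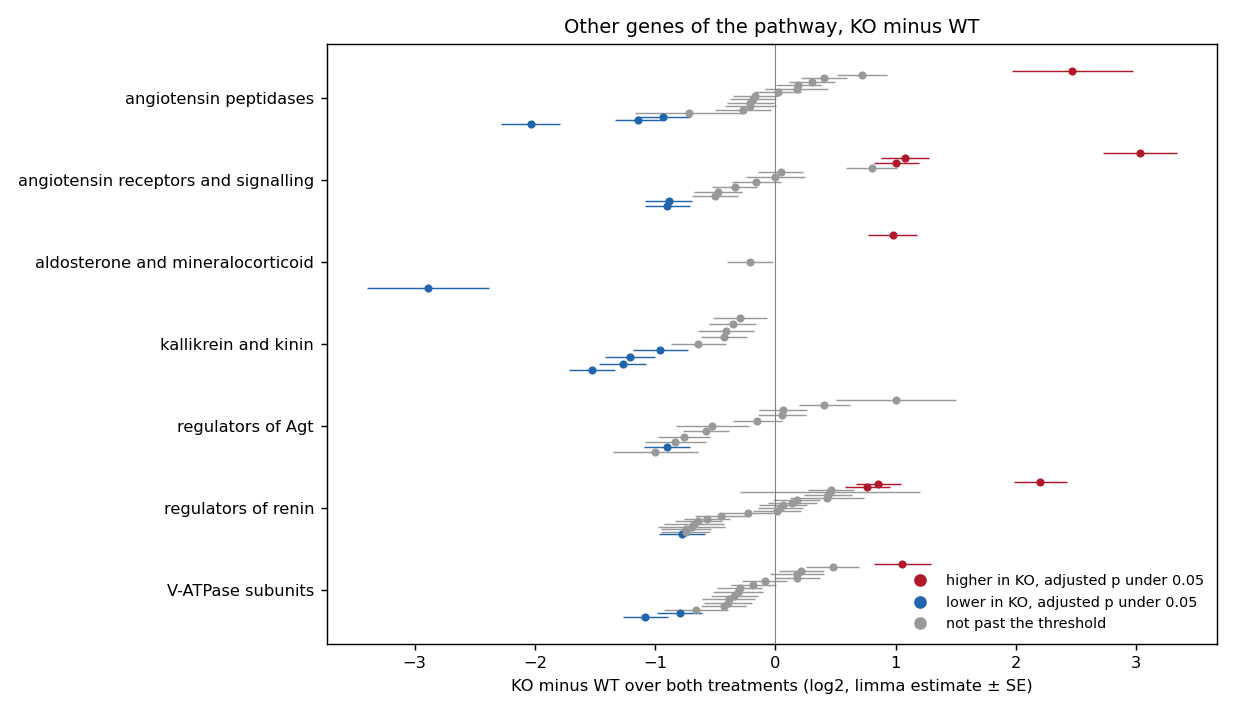
KO minus WT over both treatments (horizontal axis, log2, limma estimate with SE bars) for the measured genes of each pathway list. Red points were called higher, blue points lower and grey points neither; Rgs2 lies farthest to the right at 3.03 and Scnn1a farthest to the left at -2.89.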

How the data were processed

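Per the file headers, the scanner images were turned into intensity values with Agilent Feature Extraction 10.7.1.1; version 10.5.1 stands in the submitters' processing notes. The processed signal was used as the authors deposited it, already background-corrected by that program. Control and outlier spots were left out and spots of a probe averaged. Signals were divided by each array's 75th percentile, and log2 was taken. Probes entered the fit where both arrays of at least 1 group were well above background, and a gene was represented by its brightest probe. Names were updated through RefSeq by accession (22951 probes), symbol (6659) or synonym (3109), and 8455 kept the files' name.

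Arrays a and b were compared over 152 probes spotted at least 5 times and merged. limma 3.58.1 in R 4.3.3 was fitted to 4 RNA samples, and the fit was tested on simulated data. The p-values draw on 1 residual degree of freedom and on a prior of 3.21 degrees of freedom, which limma estimated over all fitted probes. They do not measure a spread between replicates of a group, because each group was counted as 1 RNA sample.

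Pathway and marker lists and the 7 genes were chosen with earlier results of these data known. Every probe of the 7 genes is described. From each pathway list, genes called by the fit and up to 4 with the largest difference past 2-fold are named, besides marker genes such as Akr1b7, chosen after their values were seen; some that the rule selects are not reported here. The Y-linked list was also added after seeing the data. Alternatives were normexp (offset 50), quantile normalization, median centring, other filters, a prior trend, probe means and leaving out each array.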

Additional observations from a re-analysis of the deposited data

Results flagged for a closer look

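Ace differed with ENU in opposite directions in the 2 genotypes. By its probe A_52_P68028, ENU minus vehicle was -0.64 log2 in KO and 0.14 log2 in WT. Every pairing of arrays gave the same signs within a genotype, which shows only that arrays counted as 1 RNA sample agree. In WT the arrays lay close together, at -2.40 and -2.34 with ENU and -2.58 and -2.45 on vehicle. The difference between the genotypes was not tested, because each group was counted as 1 RNA sample. With normexp background correction the WT value was -0.13 log2, so the opposite signs were not seen there.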

How the results depend on the processing

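No paired analysis was possible because the letters a and b mark arrays of 1 RNA sample, and the fit of 4 RNA samples leaves nothing to pair. Ren1 kept its sign in KO against WT on vehicle and in both ENU differences under every alternative, 15 in all. On vehicle its KO minus WT difference was 2.83 log2 with normexp, 3.20 with quantile normalization, 2.58 with median centring and 2.71 with the mean of its probes. After ENU, KO minus WT was -0.057 with median centring. ENU minus vehicle in WT was -3.18 with normexp, -3.12 with quantile normalization, -3.35 with median centring and -3.11 with the mean of probes, and in KO it was -6.22 with quantile normalization and -5.69 with the mean of probes. Leaving out 1 array moved these Ren1 values to between -6.06 and -5.91 for ENU in KO, -3.32 and -3.30 for ENU in WT, 2.79 and 2.81 for KO against WT on vehicle, and 0.05 and 0.20 after ENU.

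The call of Agt was lost with quantile normalization (-0.062 log2) and without a filter on dim probes (-0.75 log2), and leaving out 1 array gave -0.77 to -0.74 log2. The count of set members called lower was thus 0 under both settings, and 0 to 1 without an array. KO minus WT over both treatments turned positive for Agtr1a with normexp (0.020 log2) and quantile normalization (0.30 log2) and for Atp6ap2 with quantile normalization (0.081 log2). All genes called lower numbered 2796, against 4370 with normexp and 4895 with median centring, and those called higher 3098, 2468 and 2778. With probes above background on all arrays, 2170 were higher and 3726 lower. Pathway genes called lower numbered 14, against 22 with normexp, 5 with quantile normalization and 23 with median centring. The median of all genes was -0.12 log2, and -0.33 with median centring. The pathway calls lost without 1 array were those of Anpep (WT ENU b, KO vehicle a or WT vehicle a), Atp6v1h and Cpn1 (WT ENU b or WT vehicle b), Gnas (KO ENU b, WT ENU a or either WT vehicle array), Mas1 (WT vehicle a) and Rbpj (KO ENU a, WT ENU b, KO vehicle b or WT vehicle b). Causes of these shifts were not tested.

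The limits are those of the design: 1 RNA sample per group, 1 residual degree of freedom, treatment confounded with slide, and dim probes for Agtr1b and 2 of the 3 Ace probes, whose levels are set by background.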
